A study of Mus musculus with 6 samples.

Results

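The immunity-related GTPases, or IRG genes, are a family of large GTP-binding proteins that mouse cells make when they meet interferon. Igtp, Irgm1, Irgm2, Ifi47, Iigp1, Tgtp1 and Tgtp2 are described here, 7 of the 55450 genes in the deposited count tables. They were taken by name from the family, and the family was taken up because Igtp and Ifi47 had lower counts in Setd5 heterozygous cortex than in wild type cortex. The difference between genotypes is therefore given for these genes as a description, without a test.

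IRG proteins act inside the cell. In the cells of a mouse exposed to interferon-gamma, the effector members (Ifi47, Iigp1, Tgtp1 and Tgtp2) load onto the membrane around intracellular parasites such as Toxoplasma and help to break it. The regulatory members (Igtp, also called Irgm3, with Irgm1 and Irgm2) sit on the cell's own membranes and hold the effectors inactive there. Interferon-gamma binds its receptor, the kinases Jak1 and Jak2 pass the signal on, and the genes are switched on through short promoter elements called GAS and ISRE, the latter bound by the factor Irf1. In the brain, microglia, astrocytes, vascular cells and neurons can all respond to interferon.

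The samples were 6 RNA libraries of the cerebral cortex of adult mice, made from polyadenylated RNA, 3 of them labelled heterozygous for Setd5 and 3 labelled wild type. Setd5 encodes a chromatin protein with a SET domain, and the labels give neither the mutant allele nor the strain, sex or exact age. RNA came from whole tissue, by Trizol and DNase I treatment, and libraries were made with a kit that keeps no strand information, the TruSeq RNA Library Prep Kit v2. The labels do not say that the libraries came from separate animals, so p-values reflect variation among these 6 libraries only, and part of it may be technical.

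Total counts per library ran from 82850628 to 92860628, and a count of 0 in a library allowed a level of up to 0.0326 to 0.0364 CPM (counts per 1000000 counts of a library, its total scaled by TMM), which covers counting error only and would be higher if both ends of a read pair were counted. Setd5 itself was at 68.8 to 75.3 CPM in the heterozygous libraries and 97.0 to 111 CPM in the wild type libraries. Xist, the transcript of the inactive X chromosome, had 78747 counts in heterozygous replicate 3 and 69096 in wild type replicate 3, against 38 to 78 in the other 4 libraries. Wild type replicate 2 stood apart for several interferon-response genes. It was over 1.5 times the next highest library in 0.966% of the 27939 genes tested, and in the other libraries such a lead was seen in 0.226% to 1.93% of genes. The wild type means and the log2 differences of the IRG genes are given below with and without it.

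Promoter letters are shown first because 4 of the genes share an arrangement of interferon elements that can be read in them. The RefSeq promoters of GRCm38.p6 held an entry for 6 of the 7 genes, all on chromosome 11, and none for Iigp1. The 250 bases before each start were searched on both strands for GAS (TTCNNNGAA) and for the ISRE core (GAAANNGAAA), and 60 bases around the matches are printed 5′ to 3′ on the gene's strand, with the matches in capitals. The starts are those of RefSeq, while the gene coordinates given further below are those of GENCODE. For Irgm2, Irgm1 and Tgtp1 the printed stretch lies inside the GENCODE gene, whose start is further upstream. Igtp is from chr11:58199492-58199551, plus strand, and Irgm2 from chr11:58214883-58214942, plus strand. Tgtp1 is from chr11:48992294-48992353 and Tgtp2 from chr11:49064253-49064312, both on the minus strand. Irgm1 is from chr11:48871421-48871480, minus strand, and Ifi47 from chr11:49076527-49076586, plus strand.
Igtp: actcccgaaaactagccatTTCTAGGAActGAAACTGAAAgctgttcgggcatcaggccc
Irgm2: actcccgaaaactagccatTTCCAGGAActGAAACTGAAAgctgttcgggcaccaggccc
Tgtp1: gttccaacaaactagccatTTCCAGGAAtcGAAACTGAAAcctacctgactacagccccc
Tgtp2: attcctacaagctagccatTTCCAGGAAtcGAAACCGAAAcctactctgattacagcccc
Irgm1: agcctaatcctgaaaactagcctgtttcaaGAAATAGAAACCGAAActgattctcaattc
Ifi47: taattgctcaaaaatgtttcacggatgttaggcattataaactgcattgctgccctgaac

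Igtp, Irgm2, Tgtp1 and Tgtp2 each had a GAS match, 2 bases, and then an ISRE core on the same strand. In Igtp the GAS match ended 37 bases before the start, and in Irgm2, Tgtp2 and Tgtp1 it ended 67, 73 and 80 bases before it. The printed windows of Igtp and Irgm2 were identical at 58 of 60 bases (96.7%), those of Tgtp1 and Tgtp2 at 46 of 60 (76.7%), and those of Igtp and Tgtp1 at 39 of 60 (65.0%). These windows were cut around the ISRE core, which favours identity. Over the 250 searched bases, at each pair's best ungapped shift, identity was 60.9%, 42.6% and 38.2% for the same pairs. Irgm1 had no GAS match and a pair of overlapping ISRE cores, of which the one nearer the start ended 15 bases before it. Ifi47 had neither match in its 250 bases, and its last 60 bases before the start are printed, which says only that these letters are not in that window.

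Among 32851 RefSeq promoters searched over the same length, 978 (2.98%) held the ISRE core, 2306 (7.02%) held GAS and 109 (0.332%) held both. The arrangement of GAS, 2 bases and ISRE core was found in 5 promoters (0.0152%), which were those of Igtp, Irgm2, Tgtp1, Tgtp2 and Gm12185, a further IRG gene of chromosome 11. This arrangement was looked for after the windows had been read, so its rarity is a description. A match is a stretch of letters and was not measured as a binding site.

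Of the regulatory genes, Igtp (ENSMUSG00000078853.8, chr11:58199556-58207591, plus strand) was measured at 3.37, 3.12 and 3.57 CPM in heterozygous replicates 1, 2 and 3. It was at 3.89, 7.93 and 6.43 CPM in wild type replicates 1, 2 and 3. Wild type replicates 2 and 3 were high, replicate 1 lay just above the heterozygous libraries, and the groups did not overlap. The means were 3.35 ± 0.227 CPM (SD, n = 3) in heterozygous and 6.08 ± 2.04 CPM (SD, n = 3) in wild type libraries, a fitted log2 difference of -0.86 (SE 0.23). Without wild type replicate 2 the wild type mean was 5.16 CPM and the log2 difference -0.63 (SE 0.21).

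Irgm2 (ENSMUSG00000069874.7, chr11:58199618-58222782, plus strand), the gene next to Igtp with the near-identical promoter stretch, was at 2.36, 2.29 and 2.69 CPM in the heterozygous libraries. In the wild type libraries it was at 3.01, 7.08 and 3.58 CPM. Here wild type replicate 2 alone was far above the rest, at 1.98 times the next highest library, and the groups again did not overlap. The means were 2.45 ± 0.214 and 4.56 ± 2.20 CPM (SD, n = 3 each). The log2 difference was -0.90 (SE 0.29), and without wild type replicate 2 it was -0.43 (SE 0.16), with a wild type mean of 3.29 CPM.

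Irgm1 (ENSMUSG00000046879.7, chr11:48861968-48871683, minus strand), the regulatory gene whose loss in mice is known for the most severe immune defects, was at 10.2, 9.68 and 8.62 CPM in the heterozygous libraries. In the wild type libraries it was at 9.45, 12.03 and 9.21 CPM. The groups overlapped, and only wild type replicate 2 lay above every heterozygous library. The log2 difference was -0.11 (SE 0.12), and without wild type replicate 2 it was 0.02 (SE 0.11), with a wild type mean of 9.33 CPM beside the heterozygous mean of 9.48 CPM. Irgm1 is the gene printed above with overlapping ISRE cores and no GAS match.

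Of the effector genes, Ifi47 (ENSMUSG00000078920.3, chr11:49076587-49096974, plus strand) was at 0.696, 0.570 and 0.615 CPM in the heterozygous libraries. It was at 0.864, 2.76 and 1.53 CPM in the wild type libraries. As for Igtp, wild type replicates 2 and 3 were the highest, and the groups did not overlap. The means were 0.627 ± 0.0639 and 1.72 ± 0.964 CPM (SD, n = 3 each). The log2 difference was -1.45 (SE 0.38), and without wild type replicate 2 it was -0.93 (SE 0.30), with a wild type mean of 1.197 CPM. Ifi47 is the gene whose promoter window held neither element.

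Iigp1 (ENSMUSG00000054072.12, chr18:60376027-60392634, plus strand), the best-studied effector of the family, lies on another chromosome. It was at 0.718, 0.970 and 1.00 CPM in the heterozygous libraries and at 1.79, 5.38 and 1.49 CPM in the wild type libraries. Wild type replicate 2 was 3.01 times the next highest library, the largest such lead among the 5 tested IRG genes, and the groups did not overlap. The means were 0.896 ± 0.155 and 2.88 ± 2.17 CPM (SD, n = 3 each), and the log2 difference was -1.69 (SE 0.45). Without wild type replicate 2 the wild type mean was 1.64 CPM and the log2 difference -0.87 (SE 0.24), about as far from 0 as that of Ifi47.

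Tgtp1 (ENSMUSG00000078922.9, chr11:48985327-48994172, minus strand) and Tgtp2 (ENSMUSG00000078921.3, chr11:49057194-49064206, minus strand) are near-identical effector genes. Tgtp1 had 6, 1 and 6 counts in the heterozygous libraries and 0, 0 and 6 in the wild type libraries. Tgtp2 had 0 counts in every heterozygous library and 0, 1 and 2 in the wild type libraries. Neither passed the filter on low counts, also not when the counts of both were summed, and no difference could be detected at this depth. Of the 50-base windows in their transcripts, 81.2% for Tgtp1 and 86.6% for Tgtp2 also occur in another gene, mostly the other copy, so the counting may have dropped or split their reads.

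**Figure D1:**
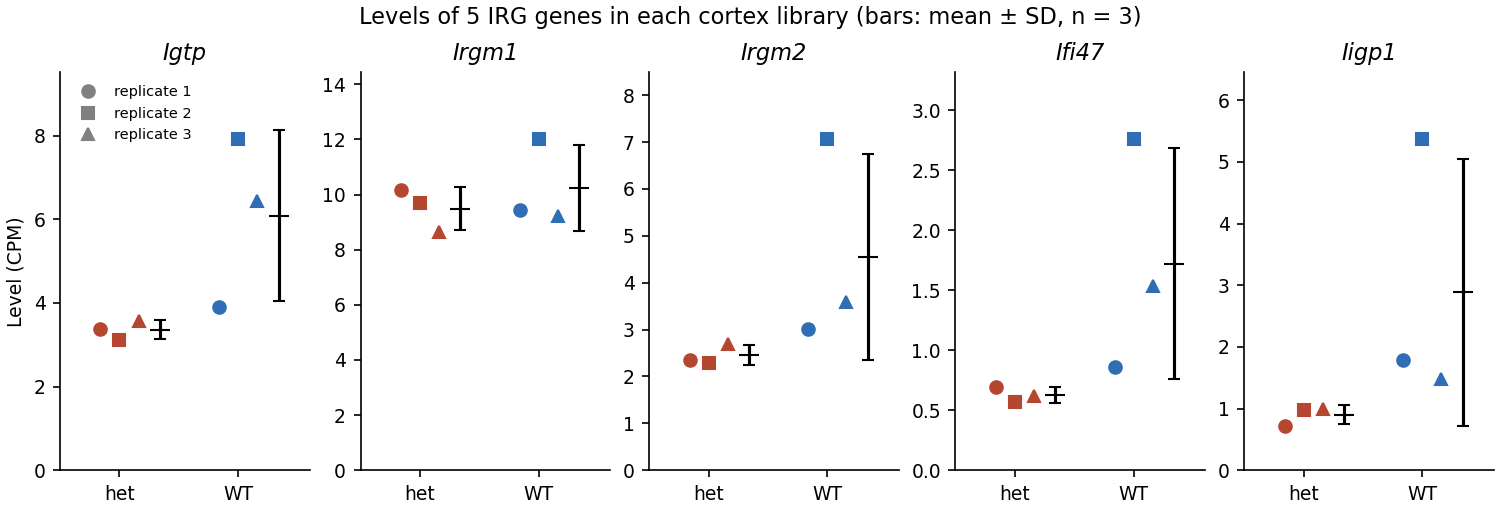
Level in CPM (vertical axes, each from 0) of the 5 IRG genes that passed the filter, in 3 heterozygous (het, red) and 3 wild type (WT, blue) libraries, with marker shapes for replicates and bars for mean ± SD (n = 3). Wild type replicate 2 (blue square) is the highest library in all 5 panels, and the red and blue points overlap only for Irgm1.

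Of the 7 IRG genes, 5 passed the filter and in 4 of those 5 the highest heterozygous library lay below the lowest wild type library. Over all genes tested, this was so in 5.85%. All 5 had a fitted level below that of the wild type, as did 50.1% of all genes, and without wild type replicate 2 this was so for 4 of 5, against 50.5% of all genes. Since the family was chosen on this contrast, nothing is read from these counts. The median log2 difference of the 5 was -0.90, and -0.63 without wild type replicate 2, beside -0.0005 over all genes tested. All 5 were highest in wild type replicate 2, as were 17.9% of all genes, and in 3 of 5 that library was over 1.5 times the next highest, as in 0.966% of all genes.

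Leaving out wild type replicate 2 moved the log2 differences of Igtp, Irgm2, Ifi47 and Iigp1 toward 0, and leaving out wild type replicate 1 moved them away from it. With each library left out in turn, the differences ran from -1.10 to -0.63 for Igtp, from -1.12 to -0.43 for Irgm2 and from -1.77 to -0.93 for Ifi47. They ran from -2.00 to -0.87 for Iigp1 and from -0.18 to 0.02 for Irgm1. RNA came from whole cortex, so fewer cells of a type that makes these transcripts and less transcript per cell cannot be told apart.

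**Figure D2:**
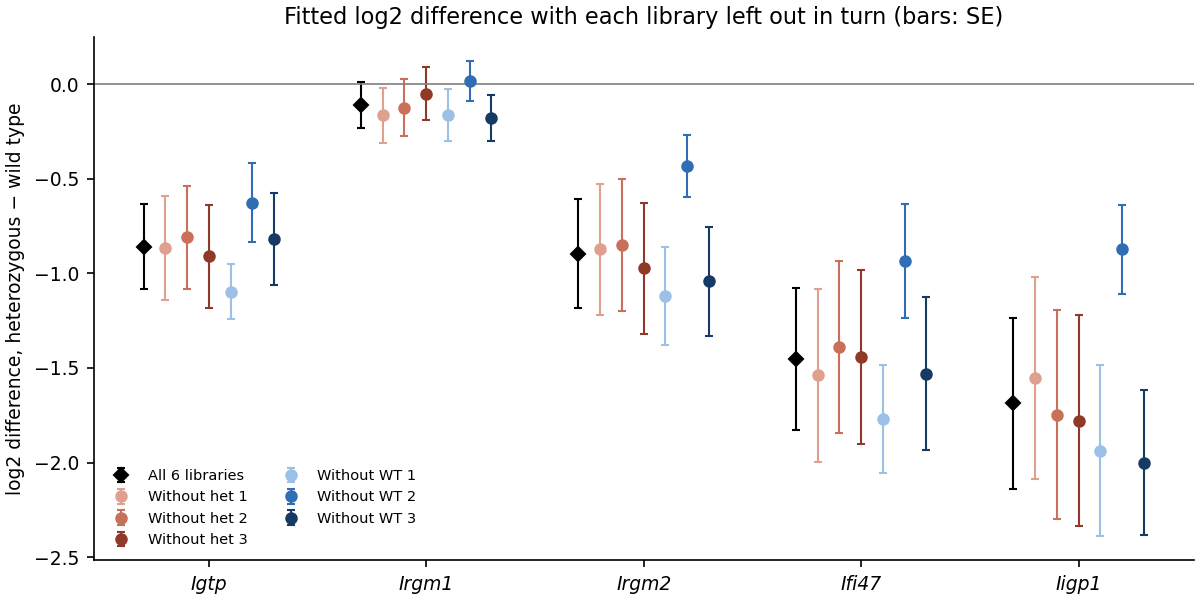
Fitted log2 difference, heterozygous minus wild type (vertical axis), of the 5 tested IRG genes with all 6 libraries (black diamonds) and with each library left out (circles). Bars show the SE, derived from the F statistic of each fit. For Igtp, Irgm2, Ifi47 and Iigp1 the value nearest 0 is the one without wild type replicate 2, and Irgm1 lies between -0.18 and 0.02.

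Levels were compared between IRG genes per kilobase of exon, as RPKM, a comparison that the choice of the family did not use. Igtp had the highest mean level, at 2.33 RPKM (range 1.54 to 3.92 over the 6 libraries), and Irgm1 followed at 1.70 RPKM. Irgm2 was at 0.949 RPKM, Ifi47 at 0.474, Iigp1 at 0.325, Tgtp1 at 0.0110 and Tgtp2 at 0.00192 RPKM. The regulatory genes thus stood above the effector genes in the order of mean levels.

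Neighbours in this order were compared within libraries on the log2(RPKM + 0.01) scale with two-sided exact sign-flip permutation tests, whose smallest p with 6 libraries is 0.03125, adjusted by Benjamini-Hochberg over 6 pairs. Irgm1 was above Irgm2 by a mean ratio of 1.92, Irgm2 above Ifi47 by 2.16 and Ifi47 above Iigp1 by 1.55. Iigp1 was above Tgtp1 by a ratio that the added constant sets, since Tgtp1 had 0 or 1 counts in 3 libraries: 14.3 with 0.01 RPKM and 3.31 with 0.1 RPKM. Each of these 4 orders held in 6 of 6 libraries (exact permutation p = 0.03125, adjusted p = 0.04688). The pairs were set by the order of means in these same 6 libraries, with both genotypes together, which the p-values do not take into account. The level of Igtp was above that of Irgm1 in 4 of 6 libraries (ratio 1.29, exact permutation p = 0.125, adjusted p = 0.15), so these neighbours did not differ beyond their spread. Tgtp1 and Tgtp2 also did not (ratio 1.59, higher in 4 of 6 libraries, exact permutation p = 0.1875, adjusted p = 0.1875).

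The places of Igtp and Irgm1, and of Ifi47 and Iigp1, depend on the length used. The union of annotated exons is 2022 bases for Igtp and 5810 bases for Irgm1, whose longest transcript is 3832 bases. With the longest transcript as length, Irgm1 came first and Igtp second, Ifi47 was above Iigp1 in 4 of 6 libraries (exact permutation p = 0.375), and no adjusted p was under 0.05. As CPM with no division by length, Irgm1 was above Igtp in 6 of 6 libraries (exact permutation p = 0.03125, adjusted p = 0.04688) and Iigp1 above Ifi47 in 5 of 6 (exact permutation p = 0.0625, adjusted p = 0.075). Without wild type replicate 2, the order of the 7 means was the same, and the smallest p that 5 libraries allow is 0.0625.

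**Figure D3:**
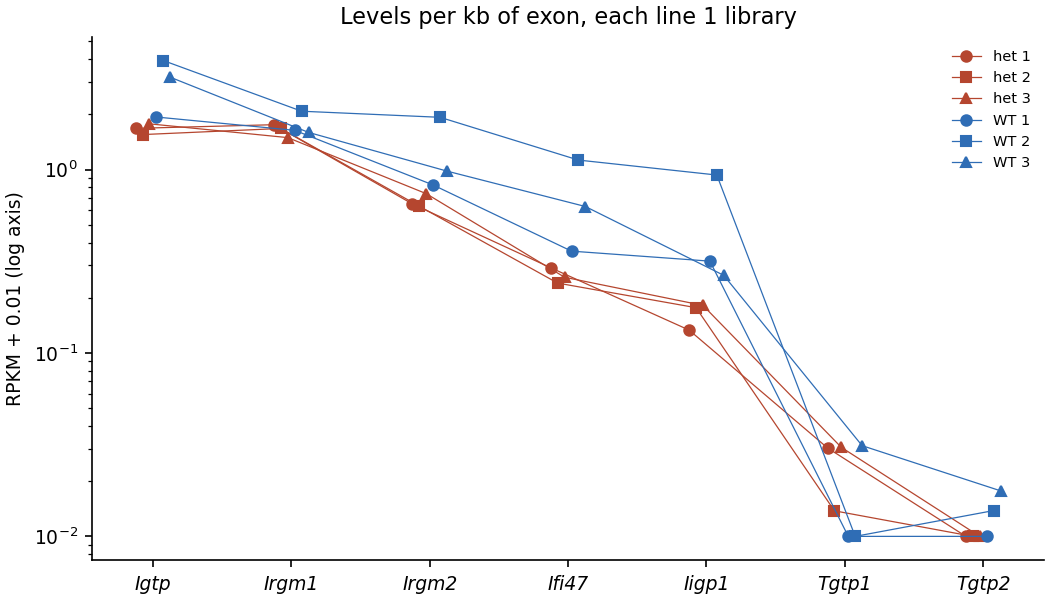
Level as RPKM + 0.01 (vertical log axis) of the 7 IRG genes in order of their mean, with 1 line per library, heterozygous (het) in red and wild type (WT) in blue. Lines cross between Igtp and Irgm1 and are ordered from Irgm1 to Irgm2 to Ifi47 to Iigp1 in all 6 libraries, and Tgtp1 and Tgtp2 lie near the added 0.01.

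Overlapping gene models and shared sequence limit some of these levels. Igtp and Irgm2 share 162 exon bases, 8.01% of the exon length of Igtp and 4.39% of that of Irgm2, in GENCODE models that overlap. Of the 50-base windows in Igtp transcripts 11.8% also occur in Irgm2, while 0.379% of those of Irgm1 and 1.69% of those of Iigp1 occur in any other gene. Ifi47 shares 111 exon bases with Olfr56, an olfactory receptor gene on the same strand, and 106 with Gm12188 on the opposite strand.

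Across libraries, Igtp and Ifi47 had the most alike profiles of any pair of tested IRG genes. Pearson's r of their log2 CPM was 0.983 over 6 libraries and 0.975 over the 5 without wild type replicate 2. This is a description, since the family was taken up because these same genes were both lower in heterozygous cortex. All profiles also share the same libraries. For Igtp and Irgm2, whose models share exon bases, r was 0.930 with wild type replicate 2 and 0.936 without it. For Igtp and Iigp1 it was 0.843 with that library and 0.592 without it. Irgm1 had r between 0.563 and 0.726 with the other 4, and between -0.453 and -0.113 without wild type replicate 2, so its likeness to them rested on that library.

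Among 14165 other genes with a mean of at least 1 CPM, the 3 nearest to Igtp in profile were Polr1e, a subunit of RNA polymerase I (r = 0.989), Tgfbr3, a co-receptor for TGF-beta (r = 0.988), and Fez2 (r = 0.988). Tgfbr3 was at 3.89 to 4.21 CPM in the heterozygous libraries and at 4.31, 6.48 and 6.35 CPM in the wild type libraries, the same arrangement as Igtp. The nearest to Ifi47 were Igtp itself, then Slc6a12, a betaine and GABA transporter (r = 0.978), and Sorcs3, a sorting receptor (r = 0.968). The nearest to Irgm1 were Ascc3 (r = 0.993), Map1lc3a, an LC3 protein of autophagy (r = 0.988), and Dhx29 (r = 0.985). These are the highest of many values over 6 libraries, and nothing is read from them.

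Within 100 kb of the 7 genes lie 27 annotated genes with no known tie to the IRG family, and 19 of them passed the filter. Of these, 11 had a log2 difference below 0 and 8 above it, with a median of -0.04 and a range from -0.24 (Gm12246) to 0.49 (Btnl9), and 0 had an unadjusted p under 0.05 by edgeR's quasi-likelihood test. Cnot8, a subunit of a deadenylase, lies near Igtp and had a log2 difference of -0.04 (SE 0.07). Rack1, a ribosomal protein near the Irgm1 and Tgtp cluster, had -0.04 (SE 0.08). The highest library was wild type replicate 2 in 5 of the 19. Gm12250, listed by RefSeq as Irgb10 and so an IRG gene, lies near Igtp and had 18, 14 and 20 counts in heterozygous and 21, 30 and 16 in wild type libraries (log2 difference -0.39, SE 0.405, and -0.14 without wild type replicate 2). BC023105, a pseudogene that shares sequence with the IRG gene Gm4841, did not pass the filter.

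Further IRG genes and pseudogenes gave small counts, except Irgq, a member of the family that is not known as an interferon target. Irgq was at 88.0 ± 4.78 CPM in the heterozygous libraries and at 86.3 ± 4.95 CPM in the others (SD, n = 3 each). The genotypes differed by 0.03 (SE 0.07) on the log2 scale. Of 11 such genes 8 passed the filter and 6 of them had a log2 difference below 0, with a median of -0.53, and -0.06 without wild type replicate 2. Gm4951, a gene next in sequence to Iigp1, had 12, 12 and 38 counts in heterozygous and 32, 62 and 12 in wild type libraries. Gm12185, which carries the promoter arrangement printed above, had 8, 16 and 14 against 16, 43 and 6 counts. Gm5431 had 17, 42 and 12 against 22, 52 and 25 counts, and F830016B08Rik had 8, 4 and 16 against 6, 24 and 11.

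In these 4 genes wild type replicate 2 was again the highest library, and the groups overlapped. The near-identical 9930111J21Rik1 and 9930111J21Rik2, which share most of their windows, had 14 against 16 to 25 counts and 19 to 28 against 29 to 44 counts. Irgc1, a testis gene of the family, had 10 to 27 counts in the heterozygous and 12 to 20 in the wild type libraries. Gm4841, Gm12187 and Gm7609 had at most 6 counts in any library.

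The upstream pathway was measured through 20 ligands, receptors and signalling genes. Of these 18 were tested and 13 had a log2 difference below 0, beside 50.1% of all genes, with a median of -0.12. Without wild type replicate 2 it was 12 of 18 with a median of -0.10. In 2 the groups were apart with the heterozygous libraries lower, beside 5.85% of all genes, and in 0 with them higher, beside 5.88%. In edgeR's quasi-likelihood test over all 27939 genes, 0 genes had a Benjamini-Hochberg adjusted p under 0.05 in either direction (0.0% higher and 0.0% lower), so 0 of the 18 tested here passed. At an unadjusted p under 0.05, 683 genes were higher (2.44%) and 945 lower (3.38%). DESeq2 called 13 higher (0.0611%) and 46 lower (0.216%) of 21274 genes, limma-voom called 0, and neither called a gene of this list. Without wild type replicate 2, edgeR called 0 higher and 2 lower (0.00697%), neither of them in a list described here.

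Ifng, which encodes interferon-gamma, had 0 counts in every heterozygous library and 4, 2 and 0 counts in the wild type libraries, near the limit that a count of 0 allows. Ifnb1 had 0 counts in all 6. The receptor chains Ifngr1 and Ifngr2 were present in both groups. Ifngr1 was at 16.4 ± 1.02 and 17.9 ± 0.661 CPM (SD, n = 3 each; log2 difference -0.12, SE 0.08). Ifngr2 was at 60.8 ± 2.39 and 59.2 ± 7.32 CPM (log2 difference 0.04, SE 0.09).

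The log2 difference was -0.01 (SE 0.07) for the kinase gene Jak1 and 0.08 (SE 0.06) for Jak2. Irf1, which binds ISRE, had a log2 difference of -0.24 (SE 0.19) with overlapping groups. Irf7 had -0.50 (SE 0.26) and the receptor gene Ifnar2 had -0.17 (SE 0.08). Socs3, a feedback inhibitor of cytokine signalling, was the single gene of the list with an unadjusted p under 0.05, at a log2 difference of 0.39 (SE 0.17, adjusted p = 0.855 by edgeR).

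The guanylate-binding proteins, a sister family of interferon-induced GTPases that act on the same parasite membranes, had the lowest median log2 difference of the pathway lists. Of 11 genes 9 were tested and 9 had a log2 difference below 0, with a median of -0.59, and -0.41 without wild type replicate 2 (again 9 of 9). In 6 of 9 the groups did not overlap, beside 5.85% of all genes, and 5 had an unadjusted p under 0.05, beside 3.38%. By edgeR 0 passed adjustment, and DESeq2 called Gbp4 (adjusted p = 0.0034) and Gbp9 (adjusted p = 0.0247) lower, beside 0.216% of all genes. This list, like the others, was chosen with earlier results of these data known, so its counts are a description.

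Gbp4 was at 0.511, 0.764 and 0.802 CPM in the heterozygous libraries and 1.64, 3.33 and 1.36 CPM in the wild type libraries. Its log2 difference was -1.61 (SE 0.35, adjusted p = 0.72 by edgeR), and -1.12 (SE 0.27) without wild type replicate 2, its highest library. Gbp9 was at 3.61, 3.68 and 4.09 CPM against 6.18, 5.57 and 5.33 CPM, with wild type replicate 1 highest and no overlap. Its log2 difference was -0.59 (SE 0.12, adjusted p = 0.72 by edgeR), and -0.61 without wild type replicate 2. Gbp2 was at 1.77, 2.15 and 2.44 CPM against 2.51, 5.31 and 2.86 CPM, and its log2 difference of -0.75 (SE 0.27) became -0.34 without that library. Gbp3 had -0.42 (SE 0.11) and Gbp6 -1.12 (SE 0.40).

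Genes of autophagy, among them those of the conjugation system that the effectors need to reach their target membranes, differed little. All 17 were tested, 3 had a log2 difference below 0 and 14 above it, the median was 0.04, and 0 had an unadjusted p under 0.05 by edgeR (0 calls by DESeq2 and limma-voom). Ulk1, a kinase that starts autophagy, had the lowest p, with a log2 difference of -0.12 (SE 0.08). Gabarapl2 had 0.10 (SE 0.07), Atg12 0.07 (SE 0.07) and Atg3 0.07 (SE 0.07).

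Other interferon-gamma targets, mostly genes of antigen presentation, were 20, of which 19 were tested. Of these 17 had a log2 difference below 0 with a median of -0.18, and without wild type replicate 2 it was 14 of 19 with a median of -0.20. Groups were apart, with the heterozygous libraries lower, in 5 of the 19, beside 5.85% of all genes, and with them higher in 0, beside 5.88%. Unadjusted p was under 0.05 in 4, all lower, beside 3.38% of all genes, and 0 passed adjustment by edgeR, DESeq2 or limma-voom. The highest library was wild type replicate 2 in 11 of the 19, beside 17.9% of all genes. In 4 of the 19, wild type replicate 2 was over 1.5 times the next highest library, beside 0.966% of all genes. Those of MHC class II stood out in that library. H2-Aa had 56, 33 and 54 counts in heterozygous and 66, 265 and 66 in wild type libraries (log2 difference -1.49, SE 0.52, and -0.52 without wild type replicate 2).

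H2-Ab1 had a log2 difference of -1.59, and -0.78 without wild type replicate 2, and H2-Eb1 had -1.39 and -0.68. Cd74, the class II invariant chain, had 127, 90 and 116 against 111, 367 and 99 counts, and its log2 difference of -0.81 became 0.03 without that library. Cxcl9, a chemokine gene known for its dependence on interferon-gamma, had 0, 2 and 0 counts against 2, 24 and 0. Tap1, a peptide transporter subunit, had -0.78 (SE 0.23), and -0.61 without wild type replicate 2.

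Targets better known for type I interferon were 23, of which 22 were tested, 17 of them with a log2 difference below 0. Their median was -0.38, and leaving out wild type replicate 2 made it -0.34, again with 17 of 22 below 0. In 10 the groups were apart with the heterozygous libraries lower, beside 5.85% of all genes, and in 1 with them higher, beside 5.88%. At an unadjusted p under 0.05, 9 were lower and 1 higher, beside 3.38% and 2.44% of all genes, and 0 passed adjustment by edgeR. Ifi44 was at 0.486 ± 0.142 and 1.56 ± 0.172 CPM (SD, n = 3 each). The fit gave a log2 difference of -1.68 (SE 0.26, adjusted p = 0.374 by edgeR). Ifi44 was the single gene of the list called by DESeq2, as lower (adjusted p = 0.00011), beside 0.216% of all genes. Without wild type replicate 2 its log2 difference was -1.60. Trim30a had -0.60 (SE 0.14) and Oas1a -1.67 (SE 0.52), while Ifit2, of the same class, had 0.28 (SE 0.08).

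**Figure D4:**
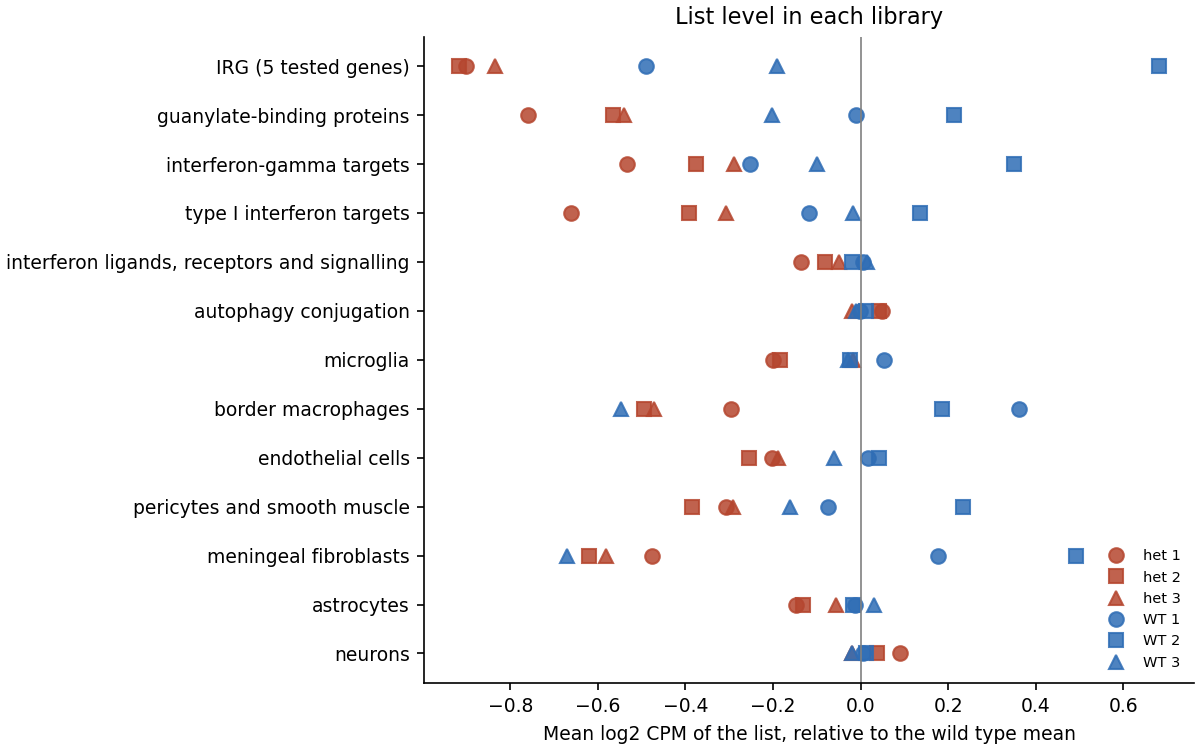
Mean log2 CPM of gene lists in each library, with the average of the wild type libraries set to 0 (horizontal axis), heterozygous (het) in red and wild type (WT) in blue. Drawn are the 5 tested IRG genes, pathway lists and part of the cell type marker lists. Further IRG genes and markers of oligodendrocytes, lymphocytes and granulocytes, and red blood cells are not drawn. Oligodendrocyte markers were at -0.02, 0.29 and 0.54 in het replicates 1, 2 and 3 and at -0.23, 0.23 and -0.01 in WT replicates 1, 2 and 3. For the IRG genes the heterozygous libraries lie between -0.92 and -0.84, and wild type replicates 1, 2 and 3 at -0.49, 0.68 and -0.19. Signalling, autophagy, astrocyte and neuron lists lie between -0.15 and 0.09. In the signalling list the heterozygous libraries lie at -0.14 to -0.05 and the wild type libraries at -0.02 to 0.02. For astrocytes it is -0.15 to -0.06 and -0.02 to 0.03. In both, every heterozygous library lies below every wild type library, while the groups overlap in the autophagy and neuron lists.

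Markers of cell types that could carry IRG transcripts were measured in the same libraries, and their part in the IRG differences was not tested. The tissue label fits its markers, with all 12 neuron markers tested and their summed level at 10080 to 11300 CPM in the heterozygous libraries and 10510 to 10780 CPM in the others. All 15 microglia markers had a log2 difference below 0, with a median of -0.14 and summed levels of 517 to 589 against 572 to 613 CPM. Of 15 endothelial markers 14 had one below 0 (median -0.20, summed levels 255 to 268 against 272 to 311 CPM). Astrocyte markers had 8 of 10 below 0 with a median of -0.09 (4364 to 4714 against 4635 to 4777 CPM), and oligodendrocyte markers 0 of 6 with a median of 0.29 (9794 to 14340 against 8096 to 10630 CPM). At an unadjusted p under 0.05 by edgeR's quasi-likelihood test, 7 endothelial, 2 microglia and 3 astrocyte markers were lower, beside 3.38% of all genes. At that threshold 2 oligodendrocyte markers were higher, beside 2.44%. Groups were apart, with the heterozygous libraries lower, in 6 endothelial, 4 microglia and 2 astrocyte markers, beside 5.85%. They were apart with these higher in 1 oligodendrocyte marker, beside 5.88%.

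Markers of meningeal fibroblasts were lower in 12 of 12 by the fit, with a median of -0.61, and -0.33 without wild type replicate 2. Their summed level was 114 to 133 CPM in heterozygous libraries and 197, 253 and 116 CPM in wild type replicates 1, 2 and 3. Pericyte and smooth muscle markers were below 0 in 11 of 12 (median -0.39, and -0.25 without wild type replicate 2, summed 266 to 273 against 278 to 339 CPM). At an unadjusted p under 0.05 by edgeR's quasi-likelihood test, 8 of the 12 fibroblast markers were lower, beside 3.38% of all genes. For pericyte and smooth muscle markers it was 6 of 12. Groups were apart, with the heterozygous libraries lower, in 2 of the fibroblast and 5 of the pericyte and smooth muscle markers, beside 5.85%. Acta2, the smooth muscle actin, was in wild type replicate 2 at 2.76 times the next highest library. Border macrophage markers were below 0 in 6 of 6 (median -0.38, summed 15.7 to 16.6 against 14.6 to 25.2 CPM).

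Of 10 lymphocyte and granulocyte markers 5 passed the filter, 4 of them with a log2 difference below 0 (median -0.35, summed 5.30 to 9.72 against 6.66 to 18.9 CPM). The T cell gene Cd3e had 0, 4 and 12 counts in heterozygous against 3, 0 and 3 in wild type libraries, and Cd3g had 0, 0 and 0 against 6, 6 and 0. Cd4 had 1186 counts in wild type replicate 3, which makes up most of the summed 18.9 CPM there, and 36 to 379 in the other libraries. Red blood cell markers were below 0 in 3 of 5 (median -0.25, summed 21.3 to 23.7 against 24.2 to 30.4 CPM). Of all 103 markers, none was at 0 in all 6 libraries, and edgeR called 0 of them. DESeq2 called the pericyte gene Vtn (adjusted p = 0.0133) and the collagen gene Col1a1 (adjusted p = 0.0334) lower, beside 0.216% of all genes.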

How the data were processed

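The authors deposited raw counts of reads per gene, 1 table per library. Per the submitters' processing notes featureCounts, DESeq2, FastQC and Bowtie2 2.3.4.3 were used, with the builds mm10 and GRCm38.p6. Not given in the sources used here are their order, settings, strand option and handling of reads matching several places, and levels of overlapping or near-identical genes are uncertain for that reason. Of counts from 1 to 10, 72.6% were even, and whether both ends of a read pair were counted is not given. All 55450 identifiers matched GENCODE M21.

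Genes kept by filterByExpr (minimum count 10, minimum total 15) numbered 27939. They were scaled by TMM and fitted by genotype with edgeR 4.0.16 (glmQLFit, glmQLFTest) in R 4.3.3, with Benjamini-Hochberg adjustment at 0.05. Each SE of a log2 difference was derived from the test. It is the unshrunk log2 coefficient, without sign, divided by the square root of the quasi-likelihood F statistic. The fit was also run on counts simulated from its own means and dispersions, with known changes added. That run cannot show whether real libraries follow this model, and nothing is read from it. Alternatives were other scalings and filters, DESeq2 1.42.0, limma-voom (limma 3.58.1), an adjusted p of 0.1, each library left out, and the 2 libraries high in Xist left out. Log2 CPM used a prior count of 1. All pairs of libraries differed by more than sampling noise (chi-square per gene 13.3 to 109). On this measure the libraries did not group by genotype. Wild type replicate 1 was nearer heterozygous replicates 1 (19.6) and 2 (23.2) than wild type replicates 2 (65.8) and 3 (56.3). Heterozygous replicate 3 was nearest wild type replicate 2 (29.5), and the nearest pair was heterozygous replicates 1 and 2 (13.3). Replicate numbers follow record order. The titles of heterozygous replicates 1 and 2 share a number code and differ by a letter, and the title of wild type replicate 3 has a form of its own. What these codes mean is not given, so related or separately handled libraries cannot be told from them. Named were all IRG genes, signalling genes fixed by name, up to 4 genes of lowest p per pathway list, the 3 nearest profiles and neighbours within 100 kb, and other genes named were chosen after their values were seen. The IRG genes, lists and tests were chosen with earlier results of these data known. Some genes that this rule takes are given by counts only or are not reported here.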

Additional observations from a re-analysis of the deposited data

How the results depend on the processing

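No call rests on an adjusted p for the IRG genes. Over 16 fits (15 for Ifi47), the log2 differences of Igtp, Irgm2, Ifi47 and Iigp1 stayed below 0, and that of Irgm1 was below 0 in 15 of 16, with 0.02 without wild type replicate 2. Other scalings, filters and tools gave -0.87 to -0.80 for Igtp, -0.91 to -0.80 for Irgm2, -1.47 to -1.30 for Ifi47, -1.70 to -1.46 for Iigp1 and -0.12 to -0.10 for Irgm1. Without the 2 libraries high in Xist, Irgm2 had -1.12, Ifi47 -1.52 and Iigp1 -2.09. Over all genes, the counts of 0 higher and 0 lower became 1 and 5 with every gene of at least 1 count, and 13 and 46 with DESeq2. At an adjusted p of 0.1, 1 gene was higher. With each library left out, 0 to 2 genes were lower, the 2 (Myoc and Ckb) without wild type replicate 2. Of the 6 neighbour pairs in the order of levels, 4 differed, and 0 did with the longest transcript as length or with any library left out, where 5 libraries allow no p under 0.0625. Median log2 differences moved to -0.06 for further IRG genes without wild type replicate 2, to -0.04 for signalling genes without wild type replicate 3 and to -0.19 for astrocyte markers without heterozygous replicate 3. That library also took microglia to -0.24 and oligodendrocytes to 0.11. Without wild type replicate 1 red blood cell markers had -0.06 and oligodendrocytes 0.15, without wild type replicate 3 border macrophages had -0.63 and lymphocytes -0.19, and without heterozygous replicate 1 neurons had -0.02. Neuron medians ran up to 0.08 and autophagy medians from 0.01 to 0.05 with a library left out. The cause was not tested. Tgtp1 and Tgtp2 summed as 1 gene gave no value, since the sum did not pass the filter. No paired analysis was possible because the labels give no replicate numbers that pair libraries across genotypes. Tgtp1, Tgtp2 and Ifng are limited by depth.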
